A study of Mus musculus with 12 samples.

Results

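The 6 lung libraries described here are 3 lung tumours and the 3 samples of adjacent lung taken from the same mice, numbered 102, 217 and 224. They are 6 of the 12 libraries of the study and were chosen by their labels, tumour against adjacent lung; the other 6 are sorted alveolar type 2 cells and were not used here. Both groups carry the same genotype, a Med23 knockout in T cells, on the C57BL/6 strain and at 18 months of age. Every fold below therefore sets tumour against non-tumour lung of knockout animals, and no wild-type lung enters it. The series was designed to learn the type and features of tumours that arise spontaneously in these animals. The labels give one tumour library a mouse and do not say whether it is 1 nodule or several, nor which Cre line removed Med23.

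Med23 is a subunit of Mediator, the complex that carries signals from transcription factors to RNA polymerase II. The adult lung is a mixture of thin alveolar type 1 (AT1) cells that exchange gas, alveolar type 2 (AT2) cells that make surfactant, airway club and multiciliated cells, a dense bed of capillaries, fibroblasts, muscle and immune cells. Mouse lung adenomas and adenocarcinomas commonly keep features of AT2 cells. A tumour nodule and the lung beside it share the animal, its age, its infections and its inherited background, so a difference taken inside each mouse removes what belongs to the mouse. Pooled RNA of a tissue counts transcripts, and in such samples fewer cells of a type and less RNA per cell cannot be told apart.

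Levels are given as CPM, the counts of a gene per 1000000 counts of its library after TMM scaling, which corrects for a few genes taking many reads. Values for a gene are written in the order of mice 102, 217 and 224. The libraries held 65163100 to 77951014 counts. Both libraries of mouse 217 stood apart from the other 4: levels fell with gene length in them (Spearman correlation across genes of deviation from the mean level with exonic length, -0.30 in the tumour and -0.27 in the adjacent lung, against 0.12 to 0.27). Tumour 217 also gave 14.7% of its counts to Sftpc and 6.44% to mitochondrial genes, against 1.41% to 5.58% and 2.05% to 3.89% in the others. Single genes were nearly missing there. Of the 8367 genes with a mean of at least 20 CPM, 30 were at least 8-fold lower in tumour 217 than in any other library and 9 in adjacent 217, on the CPM + 1 scale. Fam177a was listed at 0 in tumour 217 and lay between 37.3 and 67.8 CPM in the other 5 libraries, and Sept2 was listed at 0 in adjacent 217 and lay between 136 and 212 CPM in the others. Tumour 224 had 2 such genes, among them Kctd12 (listed at 0, against 25.3 to 161 CPM). Med23, the targeted gene, was at 25.9, 18.3 and 36.8 CPM in the tumours and 29.8, 21 and 31.5 CPM in adjacent lung; the deletion is limited to T cells, so whole lung does not check the labels.

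The tumours differed from the adjacent lung of the same mouse in many genes, and more of them were lower than higher. Of 19995 genes tested, 2980 (14.9%) passed an adjusted p of 0.05 with the mouse in the model, 1113 of them higher in tumour (5.57%) and 1867 lower (9.34%). These tests used edgeR's quasi-likelihood test with Benjamini-Hochberg adjustment over all 19995 genes, and "called", "rose" and "fell" below refer to that threshold. A log2 fold change is tumour over adjacent ± its standard error, so 1 is a doubling and -1 a halving. The median over all genes tested was -0.00044, and 6620 genes had an unadjusted p under 0.05. Scaling by library totals alone moved that median to -0.23 and gave 778 higher and 2451 lower, so the split by direction depends on the scaling. A correction for gene length gave 1511 higher and 1691 lower.

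The number of calls fell when any mouse was left out, and most of all without mouse 224. Without mouse 102 1797 genes passed and without mouse 217 1375, but without mouse 224 none did with edgeR's quasi-likelihood test (0 genes, with 4310 below 0.05 before adjustment and a lowest adjusted p of 0.0798). The limma-voom test without mouse 224 also gave 0, with 5129 at an unadjusted p under 0.05. The cause was not tested. Every called gene named below therefore loses its call without mouse 224, and no called gene changed its direction in any fit run in which it had a value, those that left out a mouse included.

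The 3 mice moved the same way in every called gene, and all 3 by at least 2-fold more often downward than upward. A within-mouse difference is log2(CPM + 1) in the tumour minus the same in the adjacent lung of that mouse. In 11498 genes (57.5%) the 3 differences had 1 sign, 5636 higher and 5862 lower (3692 and 7468 with scaling by library totals), and in 6101 (30.5%) the 3 tumours did not overlap the 3 adjacent libraries. All 3 mice moved by at least 2-fold in 640 genes upward and in 1581 downward, and in 455 and 963 with 4 in place of 1 added to the CPM. All 2980 called genes had 3 differences of 1 sign, which a call from 3 pairs itself favours, so this is a description. Of the called higher genes 607 (of 1113), and of the called lower genes 1400 (of 1867), moved at least 2-fold in every mouse. Across genes, differences correlated at a Pearson r of 0.64 for mice 102 and 217, 0.74 for 102 and 224 and 0.76 for 217 and 224; genes are not independent, so this is a description. Mouse 102 was alone in going the other way in 3557 genes, mouse 217 in 2599 and mouse 224 in 2149. Among called lower genes, mouse 102 showed the largest of the 3 differences in 1037, mouse 217 in 287 and mouse 224 in 543. Among called higher genes the split was more even, at 358, 434 and 321.

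**Figure D1:**
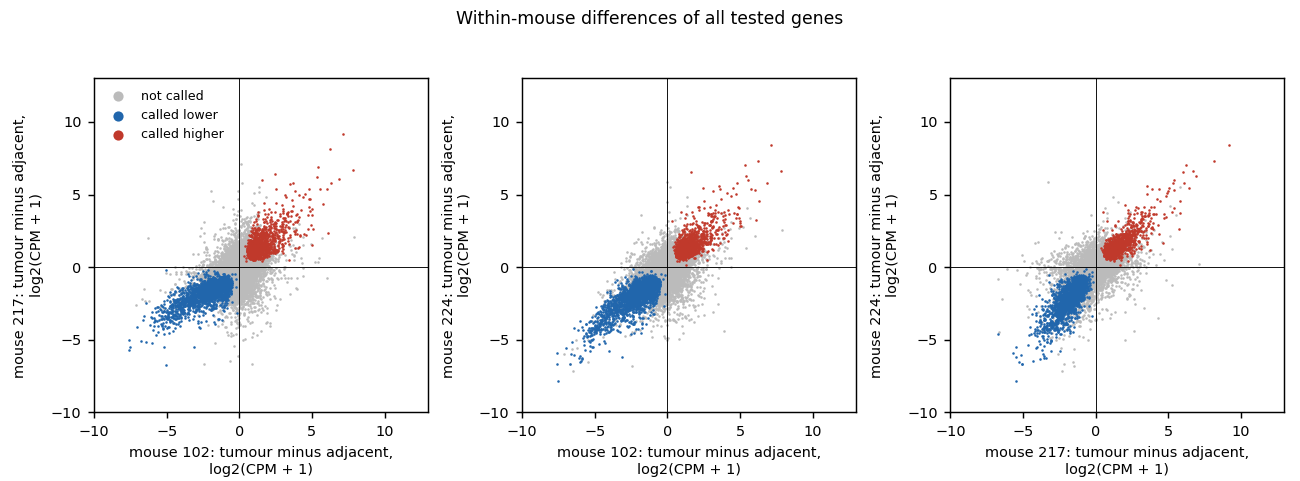
Within-mouse differences in log2(CPM + 1), tumour minus adjacent, for all 19995 tested genes, with 1 mouse on each axis; blue and red points are the 1867 genes called lower and the 1113 called higher. Called genes lie in the lower left and upper right quadrants, which a call with the mouse in the model itself favours. Lower genes reach farther down in mouse 102 than in mouse 217.

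The markers of lung cell types did not go against the labels. Counts of called markers stand beside 5.57% higher and 9.34% lower among all genes tested. In the AT2 list 7 of 12 markers rose and none fell (median log2 fold change 1.38), and its summed level was 82248 to 231543 CPM in tumours and 23872 to 45231 CPM in adjacent lung, ranges that do not overlap. Of these 7, 5 were called only with the mouse in the model, and none without mouse 217. Markers of several other lung cells were called lower, and none of theirs higher. Endothelial markers fell in 11 of 12 (median -2.32, summed level 945 to 1143 against 4116 to 6705 CPM), club markers in 7 of 10 (2009.6 to 4223 against 19069.6 to 39834 CPM), multiciliated markers in 7 of 10 (339 to 424 against 1319.7 to 2167 CPM) and AT1 markers in 5 of 11 (989 to 2339 against 3031 to 3951 CPM). Fibroblast markers fell in 6 of 12, smooth muscle and pericyte markers in 5 of 10 and mesothelial markers in 5 of 9. Heart muscle sheathes the large pulmonary veins of mice; its markers fell in 3 of 8 tested, and their summed level was 439, 41.7 and 189 CPM in the adjacent lung of mice 102, 217 and 224 and 6.35 to 10.5 CPM in tumours. Basal cell markers, of which 3 of 8 could be tested and 0 were called, were near 0 in both tissues (summed level 1.4 to 3.21 against 3.83 to 5.33 CPM), and Krt5, Dapl1 and Dsg3 had 0 counts in all 3 tumours. Of the fat cell markers 0 of 4 tested were called (22.3 to 80.4 against 30.2 to 121 CPM), and in mouse 102 their sum was higher in the tumour. Neuroendocrine markers fell in 2 of 7 tested, and 6 of the 10 listed, Chga and Chgb among them, had 0 counts in all 3 tumours.

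Of the immune markers, beside 9.34% lower among all genes tested, those called lower were 3 of 13 for T cells, 3 of 7 tested for NK cells, 4 of 10 for B and plasma cells, 4 of 8 for neutrophils, 2 of 8 for dendritic cells, 2 of 10 for alveolar macrophages and 1 of 11 (9.09%) for other monocytes and macrophages, the last at the share of all genes, and none was called higher. The adjacent libraries differed among themselves here. The alveolar macrophage list summed to 684 CPM in adjacent 102 and to 8290.0 and 7971 CPM in adjacent 217 and 224, with 960.3 to 2280.2 CPM in tumours. Without mouse 102, 5 of its 10 markers fell. In mouse 102 the summed levels of the alveolar macrophage, B and plasma cell, and other monocyte and macrophage lists were higher in the tumour than in its adjacent lung (2280.2 against 684, 597 against 402 and 572 against 466 CPM). Chil3 alone took most of the alveolar macrophage sum in the tumours and in adjacent 217 and 224. The median within-mouse differences of that list were 0.52, -1.18 and -2.01 for mice 102, 217 and 224. In mouse 102 the median was 0.41 for other monocytes and macrophages and -0.89 for B and plasma cells. Where a gene of one of these cell types is named below, its value stands beside that of its list, and the part of cell makeup in it was not tested.

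The genes of largest fold upward started from a low level: 14 of the 15, all but Trf, were under 5 CPM in each adjacent library. Ros1, an orphan receptor tyrosine kinase known as a fusion partner in lung adenocarcinoma, is at chromosome 10, 52045721 to 52195244 (GRCm38). It was at 173, 158 and 222 CPM in the tumours and 3.32, 1.14 and 0.732 CPM in adjacent lung. All 3 tumours lay far above all 3 adjacent libraries, with a log2 fold change of 6.99 ± 0.63 (adjusted p = 0.0116). Fut2, the fucosyltransferase that makes the H antigen on secretions, was at 169, 157 and 114 CPM against 1.11, 1.85 and 3.95 CPM. The tumours again stood clear of the adjacent lung (6.16 ± 0.59, adjusted p = 0.0117).

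Trf encodes transferrin, the iron carrier of plasma, which the liver makes in bulk. Trf (chromosome 9, 103204001 to 103230444) was at 28334, 21037 and 20898 CPM in tumours and 439, 504 and 524 CPM in adjacent lung. The 3 values within each group lay close together, and the log2 fold change was 5.57 ± 0.39 (adjusted p = 0.0109). Among called higher genes it took the most tumour counts after Sftpc. Habp2, a plasma serine protease that binds hyaluronan, was at 9.22, 19.2 and 13.2 CPM against 0.25, 0.268 and 0.0931 CPM, higher in every tumour (6.11 ± 0.54, adjusted p = 0.0112). Myh13, a myosin heavy chain of extraocular and laryngeal muscle, was at 16.9, 100.2 and 16.3 CPM against 0.388, 0.803 and 0.319 CPM. Tumour 217 was the highest of the 3 and all 3 were above the adjacent lung (6.04 ± 0.43, adjusted p = 0.0109).

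Elfn2, a neuronal protein with leucine-rich repeats, had the largest fitted rise of the rule. It was at 31.1, 14.8 and 9.68 CPM in tumours and 0, 0 and 0.319 CPM in adjacent lung, so its fold rests on a near-absent denominator (8.31 ± 1.79, adjusted p = 0.0434). Slc35f1, an orphan transporter of the solute carrier family, was at 8.23, 19.7 and 7.48 CPM against 0.213, 0.0535 and 0.12 CPM (6.42 ± 0.80, adjusted p = 0.0154). Bex2, a small X-linked adaptor protein, was at 25.3, 160.2 and 91.8 CPM against 3.9, 0.896 and 1.13 CPM, with tumour 102 well under the other two tumours (5.63 ± 1.18, adjusted p = 0.0412). Without mouse 217 neither Elfn2 nor Bex2 passed (adjusted p = 0.122 and 0.107), and without mouse 102 Elfn2 did not (adjusted p = 0.0908).

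The rest of the 15 genes of largest rise were Shisa6 (an auxiliary subunit of AMPA receptors), Ankrd22, Prss22 (a secreted tryptase), Rhbdl2 (a rhomboid protease), Serpinb5 (maspin), Fam83a and Tmem213, with log2 fold changes of 5.54, 5.49, 5.46, 5.32, 5.24, 5.17 and 5.03 in that order. Fam83a, a scaffold protein that acts downstream of the EGF receptor, was at 30.9, 40.6 and 61.3 CPM against 1.54, 1.86 and 0.479 CPM. Each tumour was above every adjacent library (adjusted p = 0.0165). In all 15 genes the 3 tumours lay above the 3 adjacent libraries, as they do in 1 direction or the other in 30.5% of all genes.

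The genes of largest fall were taken with the ciliary name patterns set aside, but genes of multiciliated cells that the patterns do not catch were still among them. Glp1r, the receptor of the incretin hormone GLP-1, which is abundant in lung, was at 0.0568, 1.99 and 0.175 CPM in tumours and 112, 97.9 and 119 CPM in adjacent lung. The adjacent values were nearly equal, all tumours were far below them, and tumour 217 kept the most (-8.30 ± 1.25, adjusted p = 0.0209). Scgb3a2, a secretoglobin of small airways, was at 2.05, 11.8 and 0.583 CPM against 566, 565 and 354 CPM. Tumour 217 again kept the most (-7.64 ± 0.93, adjusted p = 0.015).

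Myb, a transcription factor of blood progenitors and of multiciliated cell differentiation, was at 0, 0.191 and 0.0729 CPM in tumours and 23.5, 11.5 and 17.1 CPM in adjacent lung. It was nearly absent from every tumour, and the log2 fold change was -7.79 ± 1.18 (adjusted p = 0.021). Cyp2a5, a cytochrome P450 with a near-identical neighbour whose reads it may share, was at 0.171, 0.509 and 0 CPM against 44.6, 11.7 and 30.7 CPM (-7.35 ± 1.45, adjusted p = 0.0359). Dnali1, a light chain of axonemal dynein that the name patterns did not catch, was at 0.128, 0.891 and 0.117 CPM against 53.1, 40.4 and 25.5 CPM (-7.17 ± 0.79, adjusted p = 0.0126). Others of this set were Nme9, Fam183b, Fam216b, Stmnd1, Efcab1, Kndc1, Frmpd2, Erich3 and Mlf1, with log2 fold changes from -8.43 (Nme9) to -7.16 (Mlf1). In each of the genes named here the 3 tumours lay below the 3 adjacent libraries.

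**Figure D2:**
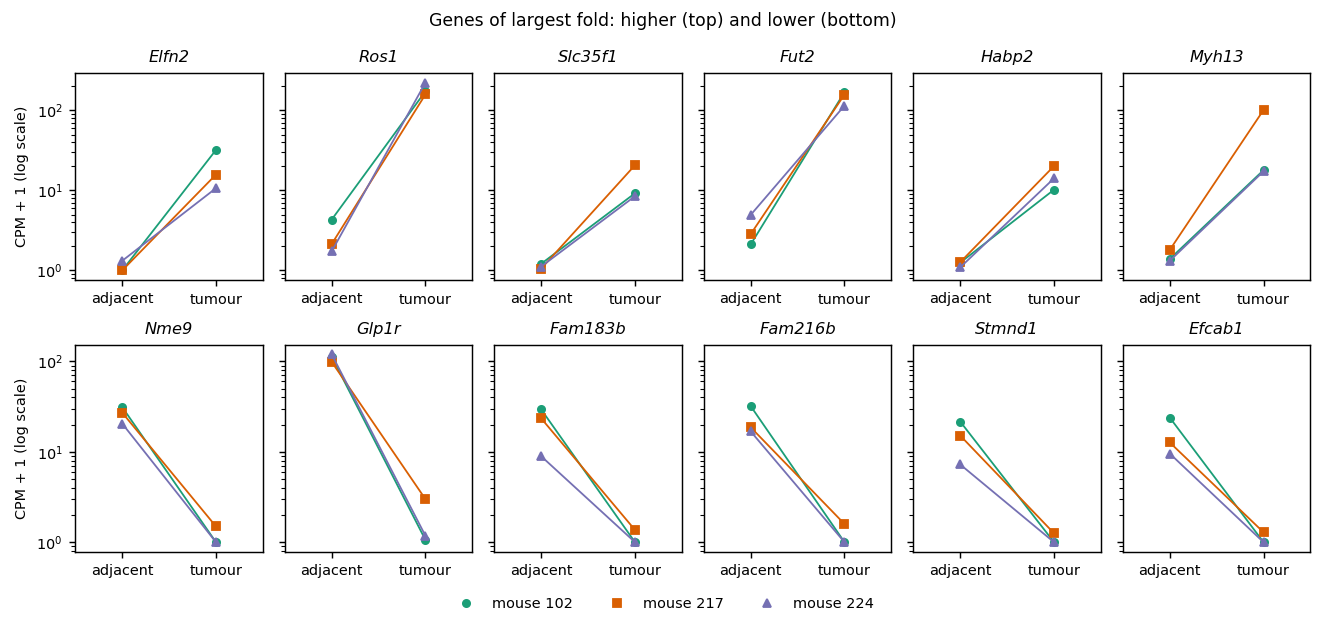
CPM + 1 on a log axis shared along each row, adjacent (left) and tumour (right), for 6 of the genes of largest rise (top) and 6 of those of largest fall (bottom); each line joins the libraries of 1 mouse. All lines of a gene run the same way, and the 2 groups do not overlap in any panel.

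Name patterns that many ciliary and centriolar proteins bear, such as Cfap, Dnah, Ccdc, Lrrc, Ttc, Wdr and Armc, gathered 421 tested genes. Of these, 126 fell (29.9%) and 13 rose (3.09%), beside 9.34% and 5.57% of all genes tested, and the median of the 421 was -0.33. The patterns also take in genes with other roles, such as Lrrc8c, named after its values were seen, which encodes a subunit of volume-regulated anion channels and rose (1.74 ± 0.24, adjusted p = 0.0171). RFX transcription factors switch on ciliary genes in many animals by binding a palindromic site called the X-box. The X-box letters (GTTNCC, any 2 bases, then GGNAAC), read on both strands, stood in 80 (0.613%) of the 13044 tested genes with a RefSeq promoter of GRCm38.p6, a window from 250 bases before to 50 after the start site. They stood in 5 of the 231 promoters of genes called lower by at least 32-fold (2.16%), in 5 of 1120 of the other called lower genes (0.446%) and in 3 of 797 of the called higher genes (0.376%). Over all called lower genes the share was 10 of 1351 (0.74%). The 5 promoters of the first kind are printed because they show where the site lies in genes that all but vanished from the tumours; capitals mark the X-box letters.
Pifo (chr3:106001448-106001747, minus strand): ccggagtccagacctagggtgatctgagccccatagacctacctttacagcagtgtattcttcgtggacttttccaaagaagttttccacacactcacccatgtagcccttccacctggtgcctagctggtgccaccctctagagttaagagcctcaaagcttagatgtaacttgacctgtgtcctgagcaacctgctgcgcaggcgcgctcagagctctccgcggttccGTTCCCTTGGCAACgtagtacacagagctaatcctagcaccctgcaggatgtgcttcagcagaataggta
Iqca (chr1:90153387-90153686, minus strand): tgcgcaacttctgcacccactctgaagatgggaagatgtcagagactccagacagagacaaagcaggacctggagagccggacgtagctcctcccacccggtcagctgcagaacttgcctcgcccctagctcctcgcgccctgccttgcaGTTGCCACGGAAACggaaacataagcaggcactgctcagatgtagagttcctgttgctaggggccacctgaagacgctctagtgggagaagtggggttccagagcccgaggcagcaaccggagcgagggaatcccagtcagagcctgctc
Ccdc180 (chr4:45890053-45890352, plus strand): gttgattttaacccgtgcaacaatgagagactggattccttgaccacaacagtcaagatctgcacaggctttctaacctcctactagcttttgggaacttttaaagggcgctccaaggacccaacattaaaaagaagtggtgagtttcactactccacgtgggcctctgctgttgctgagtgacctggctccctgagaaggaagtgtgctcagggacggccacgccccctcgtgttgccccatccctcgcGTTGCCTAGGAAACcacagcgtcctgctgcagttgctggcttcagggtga
Ccdc151 (chr9:22002585-22002884, minus strand): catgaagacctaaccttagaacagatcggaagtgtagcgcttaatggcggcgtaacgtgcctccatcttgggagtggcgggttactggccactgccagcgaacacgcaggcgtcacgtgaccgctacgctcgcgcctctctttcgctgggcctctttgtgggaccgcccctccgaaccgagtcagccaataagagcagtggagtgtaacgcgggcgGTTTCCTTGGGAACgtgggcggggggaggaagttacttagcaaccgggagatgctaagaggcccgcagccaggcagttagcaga
Ak9 (chr10:41303684-41303983, plus strand): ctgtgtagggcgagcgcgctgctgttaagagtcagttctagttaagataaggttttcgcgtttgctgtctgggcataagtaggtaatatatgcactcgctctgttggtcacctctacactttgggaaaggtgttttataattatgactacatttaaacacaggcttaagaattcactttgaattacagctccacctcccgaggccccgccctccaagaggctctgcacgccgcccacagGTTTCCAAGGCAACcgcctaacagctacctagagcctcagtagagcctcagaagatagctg
The matches began 20 bases (Pifo), 100 bases (Iqca), 34 bases (Ccdc151) and 11 bases (Ak9) before the start site, and at the start site in Ccdc180. Pifo, a protein of ciliary disassembly, was at 0.284, 0.525 and 0.175 CPM in tumours and 20.4, 13.7 and 8.67 CPM in adjacent lung (-5.48 ± 0.46, adjusted p = 0.0109). Ccdc151, an assembly factor of outer dynein arms, was at 0.114, 0.175 and 0.0583 CPM against 16.6, 11.4 and 7.74 CPM (-6.71 ± 0.46, adjusted p = 0.0109). Both were nearly absent from every tumour and present in every adjacent sample. Iqca, Ccdc180 and Ak9 had folds of -6.79 ± 1.49, -6.60 ± 1.48 and -7.08 ± 1.3 (adjusted p = 0.0456, 0.0478 and 0.0305). A match of letters is a description and says nothing of binding here. Of 6 sets of letters searched, each on both strands, TATAAA (the TATA box) stood in 9.86% of all these promoters, in 10.7% of called higher and 13.3% of called lower ones, in 24 of 115 (20.9%) of genes called higher by at least 8-fold and in 17.7% of those called lower by at least 32-fold. CCGGAAGT (ETS factors) stood in 7.61% of all, 5.02% of called higher and 2.0% of called lower promoters. TGANTCA (AP-1) stood in 6.98%, 9.41% and 9.47%, TGACGTCA (CRE) in 3.17%, 2.76% and 1.92%, and CCAAT in 41.9%, 40.2% and 38.2%.

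Putting the mouse in the model added 1261 genes to the calls (6.31% of those tested), 600 higher and 661 lower, and 1719 genes were called with and without it. Without the mouse, 2007 (10%) were called, and no gene called in either fit changed direction between them. The 1261 had smaller changes than the 1719 called both ways, with a median absolute log2 fold change of 1.32 against 2.74, and higher levels, with a median of 35.2 against 16.7 CPM. They also differed more between mice: the SD of the mouse averages in log2(CPM + 1) had a median of 0.51, against 0.33. A mouse average also carries what its libraries share, such as the length trend of mouse 217 given above, and the part of this was not tested. The median standard error of the 1261 was 0.23 with the mouse and 0.47 without it. The groups did not overlap in 929 of the 1261 and in all 1719, against 30.5% of all genes. The calls that define these sets themselves favour such values, so these contrasts are a description. Of the 1261, 1002 changed by at least 2-fold, and 643 had an adjusted p under 0.1 without the mouse.

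Dusp4, a phosphatase that switches off ERK and is itself induced by ERK, was at 106, 5.75 and 73.5 CPM in the tumours and 12.4, 0.468 and 7.1 CPM in the adjacent lung. Mouse 102 was highest and mouse 217 lowest in both tissues. Tumour 217 lay below adjacent 102 and 224, although each tumour was above its own adjacent lung, by 3.0, 2.20 and 3.20 on the log2(CPM + 1) scale. The log2 fold change was 3.35 ± 0.21 with the mouse (adjusted p = 0.0109) and 3.21 ± 1.26 without it (adjusted p = 0.168).

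Erbb3, a receptor of neuregulins that signals with ERBB2, was at 249, 105 and 188 CPM against 73.4, 38 and 67.8 CPM. Every tumour was above every adjacent library, by within-mouse differences of 1.75, 1.44 and 1.46 (1.57 ± 0.17, adjusted p = 0.0126, and 0.0542 without the mouse). Atp7b, the copper pump mutated in Wilson disease, was at 253, 54.2 and 151 CPM against 81.9, 17.2 and 43.4 CPM. Its differences of 1.62, 1.60 and 1.77 were close to each other although tumour 217 lay below adjacent 102 (1.69 ± 0.16, adjusted p = 0.0117, and 0.189 without the mouse). Others of smallest p that rose only with the mouse were Glis3, Myo18a, Arrdc1, Filip1, Mctp1, Slc25a23 and Avpi1. Their log2 fold changes lay between 1.44 (Slc25a23) and 1.86 (Filip1).

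Downward, genes of vessels and blood stood among them. Ptprb, the phosphatase that restrains the TIE2 receptor in endothelium, was at 111, 15.4 and 54.8 CPM in tumours and 1323, 144 and 343 CPM in adjacent lung. Mouse 102 was highest in both tissues and adjacent 217 came close to tumour 102 (-3.15 ± 0.26, adjusted p = 0.0109, and 0.0772 without the mouse). Kitl, the ligand of the KIT receptor and a survival factor of mast cells, was at 51, 17.3 and 13.9 CPM against 230.2, 79.6 and 76.5 CPM. Mouse 102 was again highest in both tissues and the within-mouse differences were -2.15, -2.14 and -2.38 (-2.28 ± 0.17, adjusted p = 0.0109, and 0.0756 without the mouse). S100a10, the partner of annexin A2, was at 34.4, 78.6 and 21 CPM against 111, 297 and 102 CPM. Here mouse 217 was highest in both tissues (-1.96 ± 0.20, adjusted p = 0.0118, and 0.0965 without the mouse).

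Red blood cell transcripts were called in 6 of 8 listed markers, all lower and all only with the mouse in the model (median -4.11). Hbb-bt, an adult beta globin whose reads may be shared with Hbb-bs, was at 25.2, 332 and 34.5 CPM in tumours and 879, 3710.5 and 774 CPM in adjacent lung. Mouse 217 was highest in both tissues, and tumour 217 was well above the other tumours (-4.37 ± 0.42, adjusted p = 0.0117, and 0.0886 without the mouse). Hba-a1, an alpha globin, was at 32.2, 1168 and 64.8 CPM against 1387, 7199 and 1418 CPM (-4.19 ± 0.66, adjusted p = 0.0222, and 0.25 without). The markers summed to 135 to 2850.4 CPM in tumours and 4612 to 20475 CPM in adjacent lung. Without mouse 102, and likewise without mouse 217, 6 of the 8 passed. Other genes of smallest p that fell only with the mouse were Hist1h2bc, Hmcn1, Tmtc1, Adgrl3, Otud1, Sash1 and Crim1, with log2 fold changes from -3.09 (Tmtc1) to -1.61 (Sash1).

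**Figure D3:**
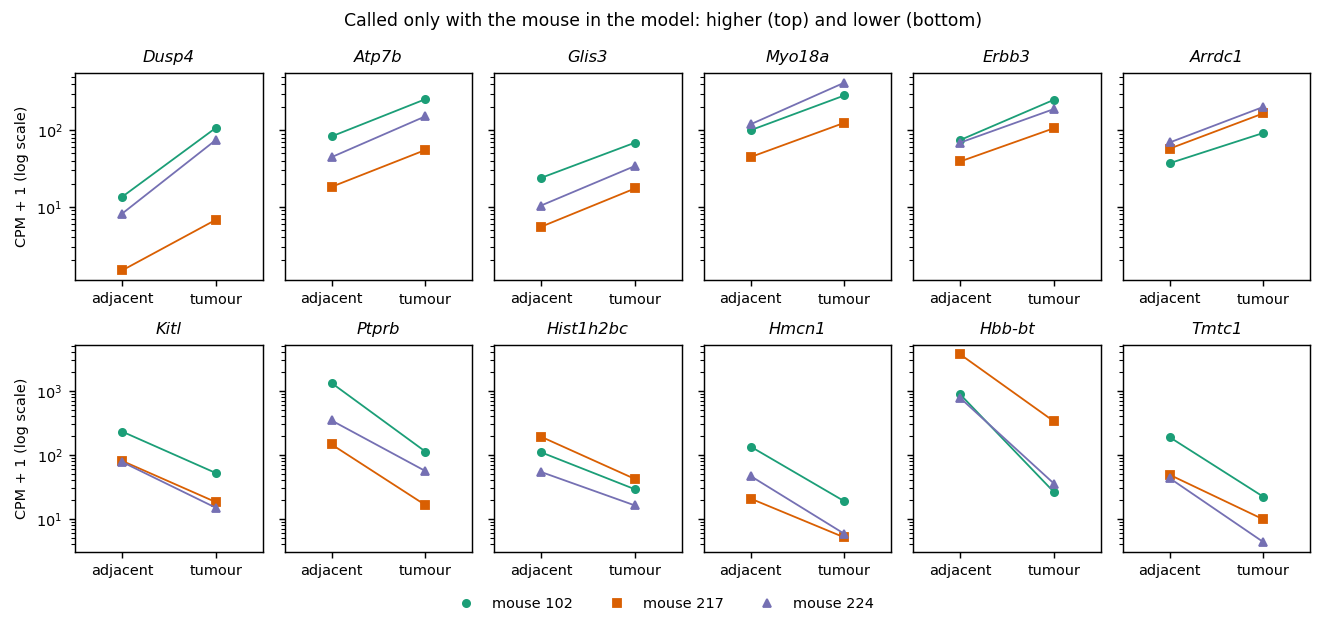
CPM + 1 on a log axis shared along each row, adjacent and tumour, for 6 higher (top) and 6 lower (bottom) genes called only with the mouse in the model; each line joins the libraries of 1 mouse. Most lines within a panel run side by side at different heights, as for Atp7b with differences of 1.62, 1.60 and 1.77.

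Conversely, 288 genes (1.44%) were called only without the mouse, 58 higher and 230 lower. They were mostly near the detection limit, with a median of 0.384 CPM and a median absolute log2 fold change of 7.32, and 235 of them had an adjusted p under 0.1 with the mouse. Among those with at least 10 CPM, Slc40a1, the iron exporter ferroportin, was higher in every tumour by uneven amounts. It was at 20.8, 51.2 and 49.4 CPM in tumours and 12, 8.4 and 6.84 CPM in adjacent lung. Its differences were 0.74, 2.47 and 2.68, smallest in mouse 102 (adjusted p = 0.0259 without the mouse and 0.0509 with it). Syk, a kinase of immune receptors, was at 47.4, 28.9 and 36.1 CPM against 72, 143 and 169 CPM, with differences of -0.59, -2.27 and -2.20 (adjusted p = 0.0336 without and 0.0535 with the mouse). Myh7, Tenm4 and Sprr2a2 (higher) and Ccdc40, Zfp641 and Myl4 (lower) made up the rest of the set.

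Some genes moved by nearly the same amount in all 3 mice. Itga4, the integrin chain that lets lymphocytes and monocytes bind VCAM-1, was the most even. It was at 9.22, 7.23 and 6.92 CPM in tumours and 46.3, 36.8 and 35.8 CPM in adjacent lung, with differences of -2.21, -2.20 and -2.22 (SD 0.00755). No tumour came near an adjacent library (-2.35 ± 0.19, adjusted p = 0.0109). Shmt1, the cytosolic enzyme that moves a carbon from serine to folate, was at 94.9, 71.6 and 82 CPM against 11.1, 8.08 and 8.78 CPM. The rise was steady, with differences of 2.98, 3.0 and 3.08 (3.15 ± 0.18, adjusted p = 0.0109).

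Lad1, ladinin, an anchoring filament protein of epithelial basement membranes, was at 77.9, 55.5 and 95.5 CPM against 8.25, 5.36 and 9.67 CPM, with differences of 3.09, 3.15 and 3.18 (3.30 ± 0.18, adjusted p = 0.0109). Erbb2, the receptor that pairs with ERBB3, was at 107, 106 and 122 CPM against 48.8, 47.2 and 53.4 CPM. Its differences of 1.12, 1.15 and 1.18 were small and even (1.16 ± 0.16, adjusted p = 0.0167). Slc16a9, a carnitine exporter, was at 12.4, 6.67 and 5.57 CPM against 101, 54.8 and 46 CPM, with differences of -2.93, -2.86 and -2.84 (-3.04 ± 0.17, adjusted p = 0.0109). The rest of this set were Usp47, Pex11a and Cdk18 (higher) and Myo1c, Ids, Pde8a and Lclat1 (lower), with an SD of the 3 differences of at most 0.0503. These genes were picked for their small spread, so their evenness is a description.

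At the other end, 3249 of the 8367 genes with at least 20 CPM were not called and had differences of both signs, and in 341 of them the 3 differences spanned at least 2 log2 units. Mouse 102 was the one alone in its sign in 177 of the 341, mouse 217 in 100 and mouse 224 in 64. Gjb1, a connexin of gap junctions, was at 41.5, 62.8 and 0.35 CPM in tumours and 2.88, 8.55 and 6.77 CPM in adjacent lung. It was higher in tumours 102 and 217 and lower in tumour 224 (3.45, 2.74 and -2.53, adjusted p = 0.599).

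Chil3, Saa3 and Gpnmb shared a pattern in which adjacent 102 was low. Chil3, a chitinase-like protein of alveolar macrophages, was at 1919, 974 and 739.7 CPM in tumours and 339, 7439 and 7156 CPM in adjacent lung. Gpnmb, a glycoprotein of lipid-laden macrophages, was at 65.9, 43 and 32 CPM against 30.8, 356 and 752 CPM. Saa3, an acute-phase protein, was at 7.96, 18.5 and 2.17 CPM against 4.06, 92.6 and 95.6 CPM. Each was higher in tumour than in adjacent lung in mouse 102 and lower in the other mice, and none was called (adjusted p = 0.496, 0.287 and 0.346). The alveolar macrophage list had its lowest summed level in adjacent 102 (684 CPM). Chil3 belongs to that list and takes most of its sum in the other libraries, so the sum is not independent of Chil3.

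Myh6, a cardiac myosin, was at 0.583, 3.5 and 0.904 CPM in tumours and 122, 0.12 and 59.3 CPM in adjacent lung. Mouse 217 thus went against the other mice. The heart muscle list, to which Myh6 itself belongs, had its lowest adjacent sum in mouse 217, and the part of heart muscle was not tested. Cbx6 (104, 0.446 and 57.5 against 57.2, 148 and 99.2 CPM), Adam10 (208, 4.01 and 139 against 73.3, 104 and 111 CPM), Ino80d (74.8, 0.159 and 66.9 against 62.5, 37.2 and 37.3 CPM) and Pfkfb3 (29.4, 1.18 and 64.3 against 35.1, 39.1 and 19.9 CPM) were near 0 in tumour 217 alone. These 4 are among the 30 genes given above as low in that library. Of the 12 genes picked for opposite differences, mouse 217 lay farthest from the middle in 7, mouse 102 in 4 and mouse 224 in 1.

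**Figure D4:**
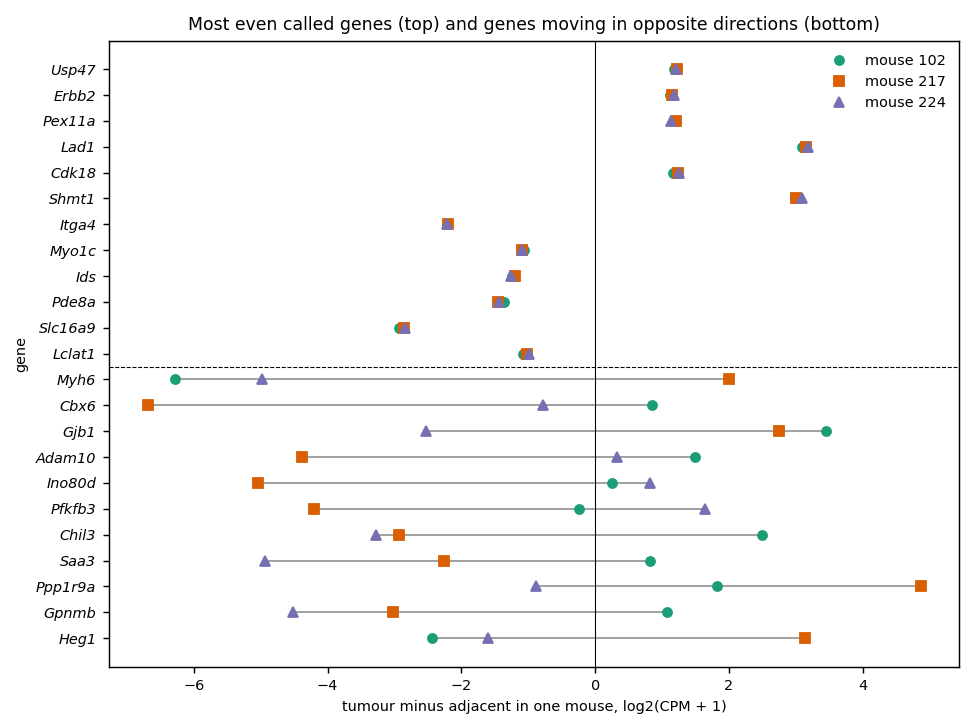
Tumour minus adjacent in log2(CPM + 1) for each mouse, for the 12 most even called genes (above the dashed line) and uncalled genes with wide differences of opposite sign (below). The 3 symbols of Itga4 coincide near -2.21, while those of Cbx6 run from -6.69 to 0.85.

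Several pathways moved in parts; the counts below stand beside 5.57% higher and 9.34% lower among all genes tested, with a median of -0.00044. Hedgehog ligands bind the PTCH receptors and release SMO, which activates the GLI transcription factors; in the adult lung, epithelium makes the ligand and mesenchyme answers. Of 16 Hedgehog genes, 3 rose and 7 fell (median -1.39). Shh, the ligand, was at 76.8, 128 and 147 CPM in tumours and 14.7, 15.6 and 22.8 CPM in adjacent lung. Every tumour exceeded every adjacent library (2.70 ± 0.21, adjusted p = 0.0109). Smo, the signal transducer, rose (1.26 ± 0.19, adjusted p = 0.0215), as did Hhat, which attaches palmitate to the ligand (1.59 ± 0.36, adjusted p = 0.0478).

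Receptors and targets were among the 7 that fell. Gli1, both a mediator and a standard target of the pathway, was at 1.32, 1.62 and 1.41 CPM against 7.64, 8.08 and 9.03 CPM. The values were tight within each group (-2.51 ± 0.32, adjusted p = 0.0161). The co-receptors Gas1 (1.05, 3.61 and 1.22 against 27.1, 27.5 and 41.2 CPM, -4.23 ± 0.54, adjusted p = 0.0158) and Boc (-3.02 ± 0.39, adjusted p = 0.0161) fell. The calls lower also took in Hhip, Dhh and Gli2, named after their values were seen (-5.04, -4.80 and -2.85). Without mouse 102, 1 rose and 3 fell, and without mouse 217, 1 rose and 4 fell. The fibroblast list fell beside them in 6 of 12 markers, and its part was not tested.

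Eicosanoid genes were called only downward, 7 of 25 (median -1.02). Hpgd, the enzyme that inactivates prostaglandin E2, is abundant in lung. It was at 3.14, 6.38 and 2.4 CPM in tumours and 799.7, 379 and 203 CPM in adjacent lung. Adjacent levels varied with mouse 102 highest, and all tumours were far below (-6.74 ± 0.56, adjusted p = 0.0109). The prostaglandin receptor Ptger2 fell (-2.72 ± 0.32, adjusted p = 0.0135), as did the lipoxygenase Alox15 (-4.44 ± 0.54, adjusted p = 0.015). The other 4 called, named after their values were seen, were Ptgis, Ptgs2, Alox5ap and Pla2g4a (-3.48, -1.62, -2.08 and -1.02). Ptgs1, the constitutive cyclooxygenase, was at 189.7, 175 and 309 against 115, 173 and 273 CPM and was not called (adjusted p = 0.387).

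The matrix lists split. In the basement membrane list 6 of 27 rose and 8 fell (median -0.19). Lamb3 and Lama3 encode chains of the same epithelial laminin trimer. Lamb3 was at 464, 331 and 683 CPM in tumours and 73.5, 73.6 and 104 CPM in adjacent lung. Lama3 was at 20.9, 17.6 and 28 CPM against 89.9, 45.7 and 82.4 CPM. The former rose (2.51 ± 0.21, adjusted p = 0.0109) and the latter fell (-1.68 ± 0.22, adjusted p = 0.0161), with no overlap in either. Col18a1, the source of endostatin, rose (2.91 ± 0.44, adjusted p = 0.0207), and so did the nidogen Nid2 (1.86 ± 0.29, adjusted p = 0.022). Col4a6, a type IV collagen chain, fell (-3.85 ± 0.33, adjusted p = 0.0112). Without mouse 217 only 1 of the list rose and 7 fell.

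Elastic fibres give the lung its recoil. Of 20 listed genes 8 fell and 1 rose (median -1.21). The 3 falls of smallest p were Fbln1, a fibulin (4.02, 7.07 and 2.83 against 72.8, 64.6 and 60.2 CPM, -3.93 ± 0.33, adjusted p = 0.0109), Mfap2, a microfibril protein (-3.05 ± 0.32, adjusted p = 0.0121), and Ltbp1, which stores latent TGF-beta (-2.56 ± 0.31, adjusted p = 0.0148). The rise was Ltbp3, of the same family as Ltbp1 (270.2, 328 and 588 against 122, 112 and 223 CPM, 1.36 ± 0.18, adjusted p = 0.0167). In the smooth muscle and pericyte list 5 of 10 markers were called lower and in the fibroblast list 6 of 12, and the part of these cells was not tested.

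Scaffold proteins of epithelial junctions rose in 7 of 27 and fell in 1 (median 0.50). Epcam, the pan-epithelial adhesion molecule, was at 395, 388 and 322 CPM in tumours and 69.9, 76.1 and 65.7 CPM in adjacent lung. Both groups were tight and apart (2.38 ± 0.17, adjusted p = 0.0109). Marveld3, a tight junction protein, and Nectin2, an adherens junction protein, rose (1.80 ± 0.20 and 1.40 ± 0.18, adjusted p = 0.0132 and 0.0155). The single fall was Esam, which belongs to endothelial junctions (-0.99 ± 0.18, adjusted p = 0.0308). Of the 8 calls, 5 needed the mouse in the model, and without mouse 217 only 1 gene of the list passed.

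Metabolic lists gave few calls. Arginine, urea and polyamine genes rose in 5 of 21 and fell in 2 (median 0.37). Arg2, the mitochondrial arginase that turns arginine into ornithine, was at 107, 76.5 and 79.1 CPM against 10.6, 7.59 and 5.87 CPM. All tumours were above all adjacent samples (3.47 ± 0.20, adjusted p = 0.0109). Smox, which oxidises spermine, rose (1.55 ± 0.26, adjusted p = 0.0258), and Ass1, which makes argininosuccinate, fell (-2.04 ± 0.34, adjusted p = 0.0245). In the tricarboxylic acid list 4 of 27 rose and 1 fell. Me1, malic enzyme, a source of NADPH, was at 1036, 362 and 538 CPM against 101, 104 and 108 CPM, highest in tumour 102 (2.48 ± 0.36, adjusted p = 0.0192), and Pck2 rose too (1.78 ± 0.23, adjusted p = 0.0161). Serine and one-carbon genes rose in 2 of 17, pentose phosphate and nucleotide genes in 3 of 26 and ribosome biogenesis genes in 3 of 28, and none of these 3 lists had a member that fell.

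Retinoid genes fell in 5 of 21 and rose in 1 (median -0.83). Rbp4, the plasma retinol carrier, rose from 18, 13.2 and 9.64 to 290.3, 129 and 77.6 CPM (3.44 ± 0.27, adjusted p = 0.0109). Aldh1a1, which makes retinoic acid and is also a club cell marker, went from 1179, 446 and 479 to 36.2, 56.2 and 26.7 CPM (-4.06 ± 0.47, adjusted p = 0.0136). Lrat, which esterifies retinol for storage, and Cyp26b1, which degrades retinoic acid, fell (-3.44 ± 0.42 and -3.06 ± 0.41, adjusted p = 0.015 and 0.0167). The storage, synthesis and breakdown enzymes named here were thus all lower in each tumour than in its adjacent lung.

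Transcription factor families had members called in both directions. Of 24 ETS factors 5 rose and 3 fell. The epithelial factor Elf5 was at 95.6, 158 and 109 CPM in tumours and 19.8, 16.8 and 15.4 CPM in adjacent lung, with no overlap (2.77 ± 0.25, adjusted p = 0.0116), and Etv1 rose (2.55 ± 0.24, adjusted p = 0.0116). The 3 that fell, Ets1, Erg and Fli1 (-1.70 ± 0.16, -2.14 ± 0.22 and -1.59 ± 0.21, adjusted p = 0.0117, 0.0118 and 0.0162), are factors of endothelial and blood cells. Of 30 forkhead factors 4 rose and 4 fell. Foxa2 and Foxq1, of epithelium, rose (1.57 ± 0.20 and 1.72 ± 0.21, adjusted p = 0.0161 and 0.0152). Foxj1, a marker of the multiciliated list and so also epithelial, was among the 4 that fell. Foxf1, the factor of lung mesenchyme and capillaries, was at 17.6, 23 and 19.6 CPM against 397, 229 and 207 CPM, low in every tumour (-3.73 ± 0.32, adjusted p = 0.0112).

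Of 15 Kruppel-like factors 6 fell and 1 rose (median -1.03). Klf2, the shear-stress factor of endothelium, was at 21.7, 58.7 and 34.6 CPM against 370.04, 424 and 276 CPM. Klf4 was at 24.8, 12.4 and 16.9 CPM against 279, 124 and 147 CPM. Both fell without overlap (-3.31 ± 0.33 and -3.31 ± 0.18, adjusted p = 0.0117 and 0.0109), while Klf5, of epithelium, rose (143, 57.2 and 76.8 against 55.1, 21.9 and 32.8 CPM, 1.33 ± 0.16, adjusted p = 0.0149, and 0.131 without the mouse). Of 6 GATA factors 4 fell and 1 rose. Gata6, the member of lung epithelium, rose (1.55 ± 0.20, adjusted p = 0.0165) and Gata3 and Gata2 fell (-3.92 ± 0.42 and -3.33 ± 0.69, adjusted p = 0.0124 and 0.0402).

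Cytosolic ribosomal proteins were called in 1 direction only, and 55 of 85 were not called. Of the 85 tested genes, with S6 kinases that share the name pattern taken out after values were seen, 30 rose and none fell (median 0.82). Rpl32 was at 419, 1231 and 418 CPM in tumours and 152, 336 and 185 CPM in adjacent lung. Mouse 217 was highest in both tissues (1.51 ± 0.22, adjusted p = 0.0195, and 0.116 without the mouse). Rps18 was at 407, 2153 and 479 CPM against 126, 593 and 197 CPM, with adjacent 217 above tumours 102 and 224 (1.61 ± 0.22, adjusted p = 0.0167, and 0.26 without the mouse). The count depended on the fit: 29 of the 30 needed the mouse in the model, 10 passed with scaling by library totals, 42 with the length correction, 8 without mouse 102 and 1 without mouse 217. These are short transcripts, and the length trend of the mouse 217 libraries given above goes with their high levels there. Processed pseudogenes, many of them copies of such genes whose reads cannot always be assigned, rose in 38 of 1269 (2.99%) and fell in 3 (0.236%). Both shares are under the 5.57% higher and 9.34% lower of all genes tested.

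Among solute carriers the calls were near the shares of all genes, at 33 of 300 lower and 23 higher (7.67%) beside 9.34% and 5.57%. Of 40 ABC transporters 12 fell and 2 rose, of 62 potassium channel genes 13 fell and 4 rose, and of 54 sodium, calcium and chloride channel genes 10 fell and 1 rose. Scnn1g, a subunit of the epithelial sodium channel that clears alveolar fluid, was at 24.5, 24.3 and 11.1 CPM against 142, 89.3 and 80.9 CPM. It fell without overlap (-2.43 ± 0.26, adjusted p = 0.0124). Kcnk1, a background potassium channel, rose (2.63 ± 0.18, adjusted p = 0.0109).

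Of 300 solute carriers 23 rose and 33 fell. Slc15a2, a peptide transporter, was at 203, 242 and 193 CPM against 33.2, 24.7 and 22.5 CPM (3.0 ± 0.22, adjusted p = 0.0109), and Slc26a9, a chloride channel of airway epithelium, at 234, 249 and 289.7 CPM against 44.2, 34.4 and 59 CPM (2.52 ± 0.20, adjusted p = 0.0109). Both were higher in each tumour than in any adjacent sample. Slc6a2, the noradrenaline transporter, which lung capillaries use to clear the amine, was at 1.88, 1.53 and 0.379 CPM against 249, 87.9 and 88 CPM. It was nearly absent from the tumours (-6.88 ± 0.50, adjusted p = 0.0109).

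Ligands and receptors gave a mixed picture. Of 18 ephrins and Eph receptors 6 rose and 2 fell (median 0.59). The receptor Epha7 was at 41.3, 34.6 and 36 CPM against 8.29, 4.24 and 4.07 CPM, apart in all libraries (2.83 ± 0.26, adjusted p = 0.0116), and Epha4 and the ligand Efna4 rose (1.95 ± 0.21 and 2.37 ± 0.26, adjusted p = 0.0124 and 0.0127). Epha3 and the venous receptor Ephb4 fell (-2.56 ± 0.43 and -0.88 ± 0.19, adjusted p = 0.025 and 0.0466). Among 60 interleukin and receptor genes 4 rose and 10 fell. Il18rap, a signalling chain of the IL-18 receptor usually found on lymphocytes, was at 123, 150.4 and 90.4 CPM against 14.2, 10.4 and 9.2 CPM. It rose in all mice (3.42 ± 0.23, adjusted p = 0.0109) while the T and NK cell lists fell in 3 of 13 and 3 of 7 markers.

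In the TNF family of 32, 2 rose and 5 fell. Tnfsf9, a T cell costimulatory ligand, was at 67.1, 38.3 and 49.4 CPM against 5.01, 7.47 and 7.48 CPM, and Tnfsf10, the death ligand TRAIL, at 19.4, 17.4 and 21 CPM against 139.6, 124 and 168 CPM. The first rose and the second fell without overlap (2.94 ± 0.34 and -2.89 ± 0.17, adjusted p = 0.0135 and 0.0109). Insulin and IGF genes rose in 3 of 21 and fell in 3. Igfbp3, which binds IGFs in plasma, rose (298, 458 and 360.3 against 92.3, 51.8 and 25.4 CPM, 2.90 ± 0.47, adjusted p = 0.0242). Of 30 serpins 11 fell and 4 rose; Serpinf1, which encodes the antiangiogenic factor PEDF, rose (157, 149.8 and 231 against 20, 20.7 and 12.4 CPM, 3.35 ± 0.35, adjusted p = 0.0123).

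**Figure D5:**
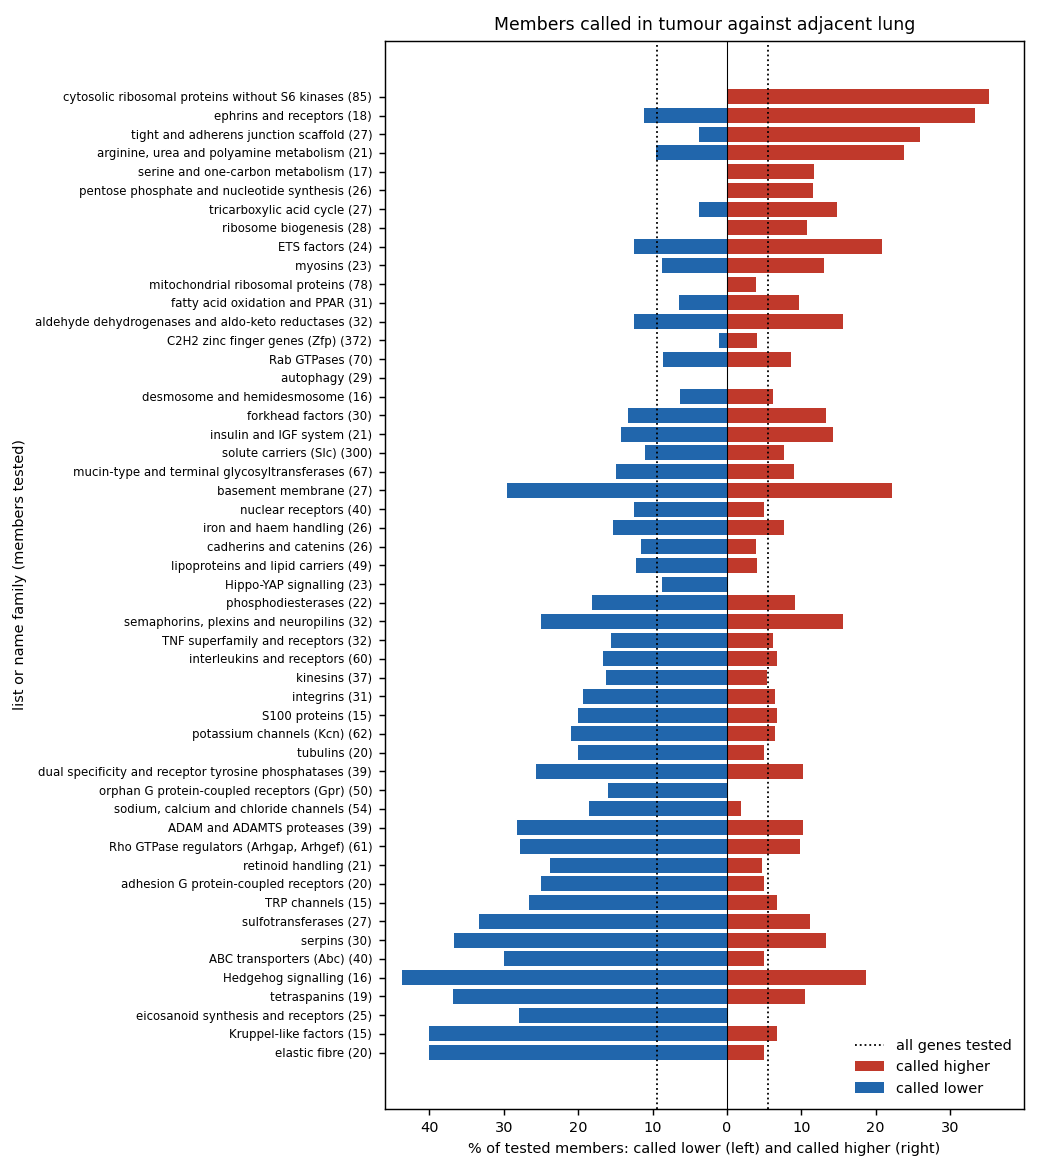
Share of tested members called lower (bars to the left) and higher (bars to the right) in tumour, for pathway lists and name families with at least 15 tested members, number tested in brackets. The ciliary name families, the phospholipases and the ribosomal pattern with S6 kinases are not shown. Dotted lines mark the shares of all tested genes, 9.34% and 5.57%. Ribosomal proteins and ephrins reach farthest to the right of their line with 30 of 85 and 6 of 18 higher, and Hedgehog genes farthest to the left with 7 of 16 lower.

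Calls were spread over the genome. On the autosomes and the X chromosome 3.83% to 7.14% of tested genes were called higher and 7.32% to 11.6% lower, around the 5.57% and 9.34% of all genes. Runs of at least 4 neighbouring tested genes called in 1 direction numbered 15, 3 of them higher with 13 genes and 12 lower with 56 genes. The run on chromosome 10 from 75774115 to 75860240 held Gstt3, Gstt1, Gstt2 and Mif. The Gstt genes are glutathione transferases of the theta class, and Mif encodes a cytokine with tautomerase activity. Mif was at 139.8, 311 and 221 CPM in tumours and 28, 73.1 and 49.1 CPM in adjacent lung, and Gstt1 at 237, 519 and 225 CPM against 60.1, 114 and 59.2 CPM. Each tumour was above every adjacent sample (2.19 ± 0.17 and 2.03 ± 0.17, adjusted p = 0.0109 and 0.011).

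Lower runs were mostly clusters of related genes. Abca8b, Abca8a, Abca9, Abca6 and Abca5 on chromosome 11 (109932190 to 110337716) are lipid transporters of one subfamily, and Abca8a was at 2.81, 3.04 and 1.05 CPM against 107, 34.8 and 32 CPM (-4.57 ± 0.44, adjusted p = 0.0117). The nonclassical MHC genes H2-Q4, H2-Q5, H2-Q6, H2-Q7 and H2-Q10 on chromosome 17 (35379617 to 35474563) fell, as did B2m, the light chain of MHC class I, which was at 582, 842 and 559 CPM against 1199.8, 2094 and 1729 CPM (-1.33 ± 0.23, adjusted p = 0.0263, and 0.0687 without the mouse). The H2-Q genes share near-identical sequence, so reads may be split among them. A run of interferon-induced Ifit genes lay on chromosome 19 (34550694 to 34613401) and a run of lymphocyte GTPases of the Gimap family on chromosome 6 (48647234 to 48752644). The longest run, 7 genes on chromosome 6 (129267325 to 129452000), held Cd69 and the lectin receptors Clec12a, Clec12b, Clec1b, Clec9a and Clec1a. Neighbours can share reads, domains and cell types, and none of these runs was tested as a unit.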

How the data were processed

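Lung RNA was poly(A)-selected and sequenced from 3 tumours and 3 adjacent samples, and the authors deposited raw counts per gene, whole numbers with no normalization, per the file headers. Per the submitters' processing notes, which give neither role nor order, the tools included HISAT2, Trimmomatic 0.39, DESeq2 1.28.1 and StringTie, with FastQC, and the build was GRCm38/mm10. Which program counted reads, with what strand option and on which gene models, is not given in the sources used here. Without strand, overlapping and antisense genes cannot be told apart, and near-identical copies may share reads. The table held 56262 identifiers, of which 1121 had no name in GENCODE M21 (0.0921% of counts), and 107 symbols occurred more than once.

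Genes were kept by edgeR's filter on low counts, scaled by TMM (factors 0.806 to 1.15) and tested with edgeR 4.0.16 in R 4.3.3, by the quasi-likelihood test with mouse and tissue as terms and Benjamini-Hochberg adjustment at 0.05. The block was taken because the labels give a tumour and an adjacent sample the same mouse number. The Pearson correlation across genes of deviations from the group means was 0.40, 0.59 and 0.50 within mice 102, 217 and 224 and -0.42 to 0.03 between mice. Deviations cancel out over the mice of a group, so positive values within mice themselves favour negative ones between mice. Both libraries of mouse 217 also share the length trend given above. These values are thus a description and do not test the pairing. Standard errors were derived from the fold change and its F statistic, and limma 3.58.1 and DESeq2 1.42.0 served as alternatives, as did other scalings and filters, a length correction and leaving out each mouse. The main fit, the quasi-likelihood test with the mouse in the model, was checked on simulated counts, and the other fits were not. No pair of libraries of the same tissue agreed within sampling noise. Each p-value rests on 3 mice, with the spread of a gene estimated partly from that of other genes.

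The members, lists and naming rule were chosen with earlier results of these data known. The rule took the 15 genes of largest fold each way with at least 5 CPM, the 12 of smallest p called only with the mouse (at least 10 CPM), the 8 taking most counts, the 6 most even and the 12 most opposite (at least 20 CPM), the 4 called only without the mouse, up to 3 a direction in each list, and runs of at least 4 neighbours; the text names part of each set. Genes at the centre of other accounts of the series, predicted genes and pseudogenes were left out of it. Some genes that the rule named are not reported here.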

Additional observations from a re-analysis of the deposited data

How the results depend on the processing

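With all 3 mice, the 2980 calls (1113 higher, 1867 lower) became 1837 (606 and 1231) with no filter on low counts, 6353 (2591 and 3762) with DESeq2, 4542 (1727 and 2815) with limma-voom and 1763 (551 and 1212) against a fold of 1.5. Without the mouse as a block (the pairing by mouse number), 2007 were called, 571 of them higher. Counts stayed within 1.5 times of the main ones with DESeq2 size factors (2943), at least 1 CPM in at least 3 libraries (3307), robust estimation (2992) and the length correction (3202). Library totals alone gave 3229 calls with 778 higher.

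Leaving out 1 mouse gave 0 to 1797 calls with edgeR's quasi-likelihood test, 0 to 667 higher and 0 to 1130 lower. With limma-voom, 3749 were called without mouse 102 (1392 higher and 2357 lower) and 2585 without mouse 217 (674 higher and 1911 lower). Without mouse 224 it called 0 in either direction, and the cause was not tested. Of 2980 calls 1417 were shared with the edgeR fit without mouse 102 and 1258 with the edgeR fit without mouse 217. Of 169 named genes recomputed, 149 were called; 59 lost the call without the block, 39 with no filter, 37 against a fold of 1.5, 52 without mouse 102, 58 without mouse 217 and 149 without mouse 224, and 0 called genes reversed. With 65163100 counts or more a library, depth limits mainly genes near 0, and a group holds 3 mice.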
